A study of Arabidopsis thaliana with 24 samples.

Results

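Alternative 5-prime splice site (5'alt) bins are the stretches of an Arabidopsis transcript that lie between a pair of competing donor sites of the same intron. They were chosen as every row of the deposited alternative splicing (AS) count tables whose event was 5'alt, which gave 1456 bins in 1342 host genes out of 7973 AS bins in all. The groups were the Columbia wild type (WT Col) and the lsm4 mutant (lsm4-1), grown on Murashige and Skoog agarose medium for 15 days, and the C24 wild type (WT C24) and the lsm5/sad1 mutant, grown on soil for 30 days and taken before bolting. All plants were whole plants kept at 22 °C in continuous light, and each mutant was set against its own accession. Every group had 3 replicates, each sequenced as 2 libraries that share a count column, and "library" below means such a column. Accession, medium and age differed together between the Col and C24 experiments and cannot be told apart. The labels do not name separate cultures, and p-values therefore speak only of the spread among these columns, which may be technical.

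A donor site is the start of an intron, and the U1 small nuclear RNA recognises it first. The U6 small nuclear RNA, which carries a ring of LSM2 to LSM8 proteins in the nucleus, takes over the first bases of the intron before the cut is made. LSM4 and LSM5 belong to that ring and also to a cytoplasmic ring that promotes removal of the mRNA cap. When the upstream donor is used the bin leaves with the intron, and when the downstream donor is used the bin stays in the mRNA. Reads in a bin therefore come from use of the downstream donor or from RNA in which the whole intron is still present. The measure used throughout is the bin share, the bin's count as a percentage of the count of its host gene in that library. Since bins of a few bases hold many counts, reads that only overlap a bin must be among them, and shares of narrow and wide bins are not densities.

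The 1456 bins were 2 to 2004 bases wide, with a median of 19 bases and quartiles of 5 and 51. The commonest width by far was 4 bases, with 265 bins (18.2%), against 65 bins of 3 bases and 57 of 5 bases. The width was a multiple of 3 in 621 bins (42.7%), so that in the others a coding frame would shift with the choice of donor. Most bins, 1094, lay in coding sequence of the reference annotation, 229 lay on the 5-prime untranslated side, 25 on the 3-prime untranslated side and 99 within the coding span but outside annotated coding exons. The other 9 lay in genes with no annotated coding region. Both donors began with GT in 1265 bins, the upstream donor with GC and the downstream one with GT in 116, and the reverse in 37. Both donors were annotated intron starts in the RefSeq annotation for 1346 bins. All 1456 had an intron in the deposited intron table that starts directly after the bin.

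**Figure D1:**
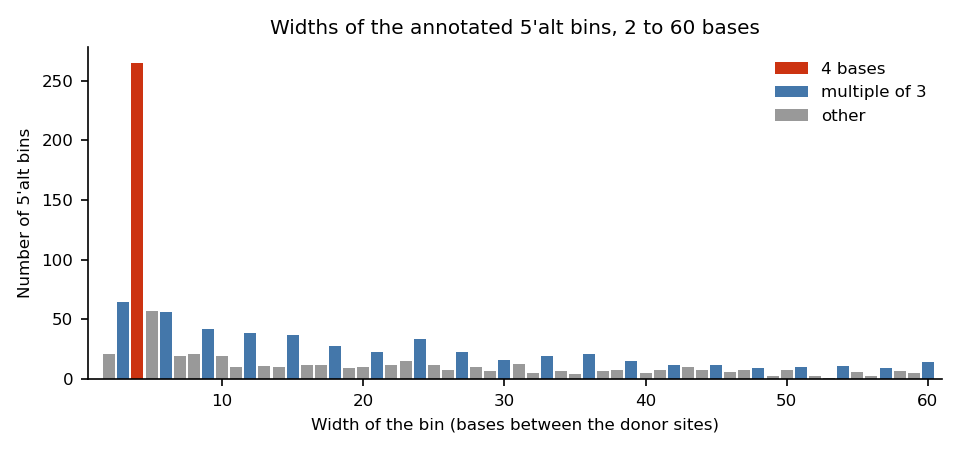
Number of 5'alt bins (vertical axis) of each width from 2 to 60 bases (horizontal axis), with 4-base bins in red and multiples of 3 in blue. The bar at 4 bases holds 265 bins, and multiples of 3 stand above their neighbours at most wider widths.

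Donor strength was scored over the last 3 exon bases and the first 6 intron bases against the base frequencies of 126978 annotated GT donors, on a log2 scale on which a GC donor scores low by construction. Among the 4-base bins the median score was 5.17 for the upstream donor and 2.73 for the downstream donor, and the upstream donor scored higher in 154 of 265. Among the other 1191 bins the medians were 5.16 and 5.27. A 4-base bin with GT at both donors reads GTNNGT on the gene's strand, and 190 of the 265 were of that form. Of all annotated GT donors, 29.2% (37106) also read GTNNGT on that strand, a match of letters only.

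The sequences below are shown to compare the donors of the bins that rose in lsm4 with those of a pair of bins with the most reads. Each line runs 5′ to 3′ on the gene's strand with 12 exon bases, the bin and 12 intron bases, from RefSeq TAIR10.1, and the capitals mark the first 2 bases of each possible intron.
NOI AT5G55850:E005, chr5:22604732-22604735, plus strand: aaacctcagcctGTaaGTttcctcttct
SAG21 AT4G02380:E003, chr4:1046730-1046733, minus strand: tgctatcttccgGTaaGTctctattgtt
AT1G56220:E004, chr1:21043890-21043893, plus strand: ctccgttctctgGTgaGTttttattttt
AT1G25275:E007, chr1:8861000-8861032, plus strand: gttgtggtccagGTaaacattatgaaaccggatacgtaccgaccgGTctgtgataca
RBCS1A AT1G67090:E002, chr1:25048838-25048844, minus strand: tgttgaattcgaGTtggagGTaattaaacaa
MT3 AT3G15353:E004, chr3:5181276-5181281, minus strand: tgacaagacccaGTgcgtGTaagtgtcctc
In the first 4 the upstream donor scored higher, with 6.38 against 0.61 for NOI, 9.23 against 0.55 for SAG21, 7.54 against 0.55 for AT1G56220 and 8.77 against 4.54 for AT1G25275. In RBCS1A and MT3 the order was the other way, with downstream scores of 9.66 and 6.005 against -0.28 and 1.95 upstream. None of these bins overlapped another gene of the count table.

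Gene counts summed to between 9402839 (WT Col 1) and 52218346 (WT Col 2) per library. The leaf markers RBCS1A, RCA and CAB1 were read in every library, with summed levels in CPM (gene counts scaled to equal library totals) of 60300 to 66100 in WT Col, 28200 to 41900 in lsm4, 53300 to 74600 in WT C24 and 46800 to 66000 in lsm5. The root markers CASP1, RHD6, IRT1 and SCR summed to 167 to 224 CPM in WT Col, 90.6 to 126 CPM in lsm4, 34.6 to 40.1 CPM in WT C24 and 32 to 38.3 CPM in lsm5. In the soil-grown C24 experiment SCR carried nearly all of that, CASP1 and IRT1 were at most 0.353 CPM and RHD6 was at 0. The floral markers AP3, SEP3 and AG together summed to 0.0764 to 0.364 CPM in WT Col and 1.72 to 3.65 CPM in lsm4, and to 0.118 to 1.06 CPM in WT C24 and 1.64 to 2.86 CPM in lsm5. Whether tissue makeup plays a part in the results below was not tested. LSM4 stood at 45.7 to 68.3 CPM in WT Col and 280 to 409 CPM in lsm4, so its count set the lsm4 libraries apart by a rise and showed no loss. LSM5 stood at 10.8 to 20.6 CPM in WT C24 and 9.7 to 20 CPM in lsm5, so its count does not check the lsm5 label.

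Most 5'alt bins carried few reads. Of the 1304 bins whose host had at least 10 counts in every WT Col library, 258 had no read in any of them, 451 had a mean share under 1%, 414 lay between 1% and 10%, 173 between 10% and 50%, and 8 above 50%. In WT C24 the same classes held 340, 414, 359, 169 and 6 of 1288 bins. The median share was 2.76% in WT Col where the downstream donor scored higher (633 bins) and 0.114% where the upstream donor did (667 bins), and in WT C24 it was 2.31% (624 bins) and 0.0942% (660 bins). The 4-base bins had median shares of 0.121% in WT Col (245 bins) and 0.0581% in WT C24 (239 bins). Over the 416 bins tested in both experiments, shares in WT Col and WT C24 had a Spearman correlation of 0.907, a description across bins that share the reference annotation.

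The bins with the most reads barely moved. The 7-base bin of RBCS1A, a small subunit gene of Rubisco, held 10.4%, 10.1% and 9.19% of the host count in the WT Col libraries, given in the order of their numbers here and below, and 9.54%, 11.7% and 8.24% in those of lsm4. In the C24 experiment it held 11.5%, 10.8% and 10.5% in WT C24 and 8.39%, 9.58% and 11.1% in lsm5. The groups overlapped in both experiments (log2 change -0.01, SE 0.12, and -0.18, SE 0.10), and reads shared with the near-identical Rubisco small subunit genes make these shares uncertain. The 6-base bin of MT3, a metallothionein gene, held 69.8%, 69.8% and 71.1% in WT Col and 60.2%, 66.1% and 66% in lsm4. The lsm4 libraries of MT3 lay below WT Col, but the fitted change of -0.13 on the log2 scale (SE 0.08) was not called (adjusted p = 0.76, edgeR). The 156-base bin of RPS6B, a ribosomal protein S6 gene with a close paralog, held 30.6% to 39.8% in the Col experiment and 30.1% to 35% in the C24 experiment, with overlapping groups.

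Reads appeared in more of the bins in both mutants. Among bins with a host count of at least 10 in the library, a read was present in 53.2%, 73.5% and 61.9% for WT Col and in 78.7%, 79.2% and 75.5% for lsm4, although WT Col 2 was the deepest library of all. Scaled to the depth of WT Col 1 (9402839 gene counts), the expected shares were 53.2%, 55.4% and 52.0% in WT Col and 64.1%, 67.5% and 59.9% in lsm4. All lsm4 libraries lay above all WT Col libraries. The scaled shares were 51.1%, 48.7% and 50.8% in WT C24 and 54.9%, 51.4% and 59.8% in lsm5, where the groups also did not overlap but the nearest libraries were close. This was not particular to 5'alt bins: over all AS bins the scaled shares were 62.3% to 65.2% in WT Col and 68.8% to 74.4% in lsm4. They were 57.5% to 59.6% in WT C24 and 59.9% to 66.5% in lsm5. With 3 libraries against 3, an exact two-sided permutation test cannot give a p under 0.1.

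The summed share moved in opposite directions in the mutants. All 5'alt bins together held 5.16%, 4.94% and 5.01% of the counts of their hosts for WT Col and 5.45%, 6.04% and 5.26% for lsm4, a difference of 0.547 percentage points (5.04 ± 0.108 against 5.58 ± 0.403, SD, n = 3 each; exact permutation p = 0.1, the smallest the design allows). In the C24 experiment they held 5.45%, 5.33% and 5.38% in WT C24 and 5.01%, 5.17% and 5.27% in lsm5, a difference of -0.235 points (5.39 ± 0.0623 against 5.15 ± 0.130, SD, n = 3 each; exact permutation p = 0.1). Groups did not overlap in either. The 10 bins with the highest counts carried much of these sums. Without them the difference was 0.423 points in lsm4 and -0.00768 points in lsm5, and without lsm4 2 it was 0.320 points in lsm4.

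In lsm4, 4 of the 540 tested 5'alt bins rose relative to their host and none fell. The bins were those of NOI, SAG21, AT1G56220 and AT1G25275, and all 4 lie in coding sequence. NOI had too few WT Col reads to pass the count filter without the lsm4 libraries, so its bin could only be higher there. Over all 3549 AS bins tested, 0.366% were called higher and 0% lower, so that 4 of the 13 AS bins called were 5'alt bins (0.741% of those tested). At an unadjusted p under 0.05 there were 40 of the 540, 32 higher and 8 lower, against 9.27% of all AS bins tested (7.44% higher and 1.83% lower). The median log2 change was 0.04 (quartiles -0.23 and 0.38), beside 0.07 over all AS bins, 0.13 over retained introns, 0.05 over alternative 3-prime sites and -0.02 over skipped exons. Calls were made with edgeR's quasi-likelihood test at a Benjamini-Hochberg adjusted p under 0.05. The count fell to 0 when WT Col 2, when WT Col 3, when lsm4 1 or when lsm4 3 was left out, and it was 4 without WT Col 1 and 5 without lsm4 2. With TMM library scaling in place of the host count, which also follows the level of the whole gene, 23 bins were called higher and 10 lower. SAG21 and NOI were among them, and AT1G56220 and AT1G25275 were not. The total called over all AS bins with that scaling is not given.

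**Figure D2:**
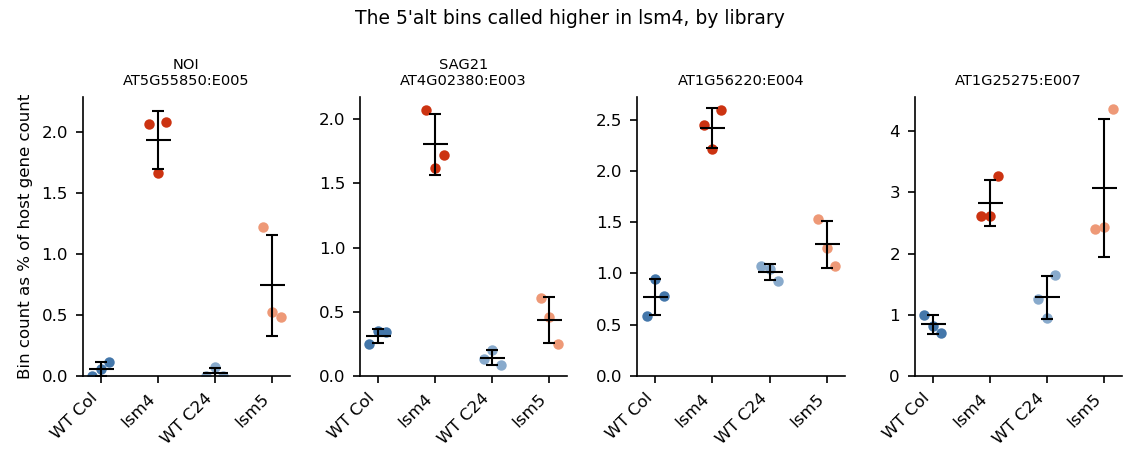
Bin count as a percentage of the host gene count (vertical axis) in each library (points) of the 4 groups, with the mean and SD of n = 3 in black, for the 4 bins called in lsm4. All lsm4 points lie above all WT Col points, and the lsm5 points of NOI, SAG21 and AT1G25275 lie above those of WT C24.

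NOI is a small gene of the RIN4 family, whose best known member is a target of bacterial effectors at the plasma membrane. Its 4-base bin had 0, 1 and 1 counts for WT Col and 40, 27 and 46 for lsm4, or shares of 0%, 0.0590% and 0.111% against 2.06%, 1.66% and 2.08%. The lsm4 share was 28.0 times that of WT Col from summed counts (exact 95% interval 7.58 to 234, covering counting error only, and narrower than it should be if a read pair counts as 2), with an adjusted p of 0.027 (edgeR). In the C24 experiment the bin had 0, 2 and 0 counts in WT C24 and 28, 16 and 13 in lsm5, a ratio of 19.9 (interval 5.25 to 168), which was not called (unadjusted p = 0.0019, adjusted p = 0.38, edgeR). Every mutant library lay above every wild-type library. In both comparisons the bin passed the count filter only through the mutant libraries, so a tested bin with these wild-type counts had to be higher there. The 70-base intron that follows the bin had 0, 1 and 0 counts in WT Col and 45, 30 and 50 in lsm4, nearly the same numbers as the bin. In lsm5 the intron had 33, 17 and 15 counts, against 0, 2 and 0 in WT C24 (adjusted p = 0.064, edgeR), so that neither the bin nor the intron passed the test there. In both comparisons the intron, like the bin, passed the count filter only through the mutant libraries.

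SAG21 is a senescence-associated gene of the late embryogenesis abundant family that responds to oxidative stress. Its 4-base bin held 0.252%, 0.347% and 0.344% of the host count in WT Col and 2.07%, 1.62% and 1.72% in lsm4. The lowest lsm4 library lay well above the highest WT Col library, a 5.44-fold rise (log2 change 2.44, SE 0.33; adjusted p = 0.027, edgeR). In WT C24 the bin held 0.131%, 0.204% and 0.0870%, and in lsm5 0.605%, 0.461% and 0.247%, again without overlap (log2 change 1.63, SE 0.46; unadjusted p = 0.0079, adjusted p = 0.57, edgeR). The adjacent intron of 96 bases rose from 1.75% ± 0.176 to 6.72% ± 1.57 of the host count in lsm4 (SD, n = 3 each; log2 change 1.93, adjusted p = 0.0011, edgeR).

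AT1G56220 encodes a protein of the dormancy and auxin associated family. Its 4-base bin held 0.588%, 0.945% and 0.776% in WT Col and 2.45%, 2.21% and 2.6% in lsm4, a 3.09-fold rise (log2 change 1.63, SE 0.25; adjusted p = 0.027, edgeR). In the C24 experiment it held 1.07%, 1.04% and 0.924% in WT C24 and 1.53%, 1.25% and 1.07% in lsm5, where the groups overlapped (log2 change 0.34, SE 0.23). The difference between the mutants, -1.29 on the log2 scale (SE 0.32), had an unadjusted p of 0.0015 and an adjusted p of 0.80 (edgeR), so it was not called. Its adjacent intron of 454 bases went from 5.21% ± 0.295 to 9.53% ± 0.679 in lsm4 (SD, n = 3 each; log2 change 0.87, adjusted p = 0.0081, edgeR).

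AT1G25275 encodes a thionin-like protein, and its bin of 33 bases keeps the reading frame. The bin held 1.00%, 0.819% and 0.704% in WT Col and 2.62%, 2.61% and 3.27% in lsm4, a 3.43-fold rise (log2 change 1.78, SE 0.29; adjusted p = 0.032, edgeR). In WT C24 it held 1.26%, 0.948% and 1.65%, and in lsm5 2.40%, 2.43% and 4.37%, without overlap (log2 change 1.25, SE 0.36; unadjusted p = 0.0078, adjusted p = 0.57, edgeR). Here the adjacent intron was not called: 26, 91 and 36 counts in WT Col and 78, 39 and 81 in lsm4 (log2 change 0.73, adjusted p = 0.13, edgeR), against 18, 63 and 36 and then 116, 63 and 134 counts in the bin. In WT Col the bin had no more reads than the intron, whereas in every lsm4 library it had more. Taking all reads of the adjacent intron off each bin's count leaves WT Col at 0 in this bin by those same counts, and leaves NOI, SAG21 and AT1G56220 with too few reads to be tested, so it gives no further test of the 4 bins.

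The introns that follow the bins were higher in lsm4 more often than the bins themselves. The intron after the bin could be tested for 199 of the 540 bins, and its median log2 change was 0.74, against 0.07 for the bins themselves. Of these introns 48 (24.1%) were called higher and 0 lower, beside 17.6% called higher of all 11439 introns tested. Introns went through the same count filter, so one barely read in WT Col was tested only through lsm4 and had to be higher. The medians and calls of the introns can therefore be set in part by the filter. Among the 48 bins beside a raised intron 28 had a fitted change above 0, 13 had an unadjusted p under 0.05 and 3 were called, and their median log2 change was 0.11. In lsm5, 117 bins had a tested intron, with medians of 0.29 for the introns and 0.02 for the bins, and 1 intron was called, beside 0.517% of 7151. Across bins the change of a bin and of its intron had a Pearson correlation of 0.345 in lsm4 and 0.490 in lsm5, given as a description, since a read can be counted in both.

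**Figure D3:**
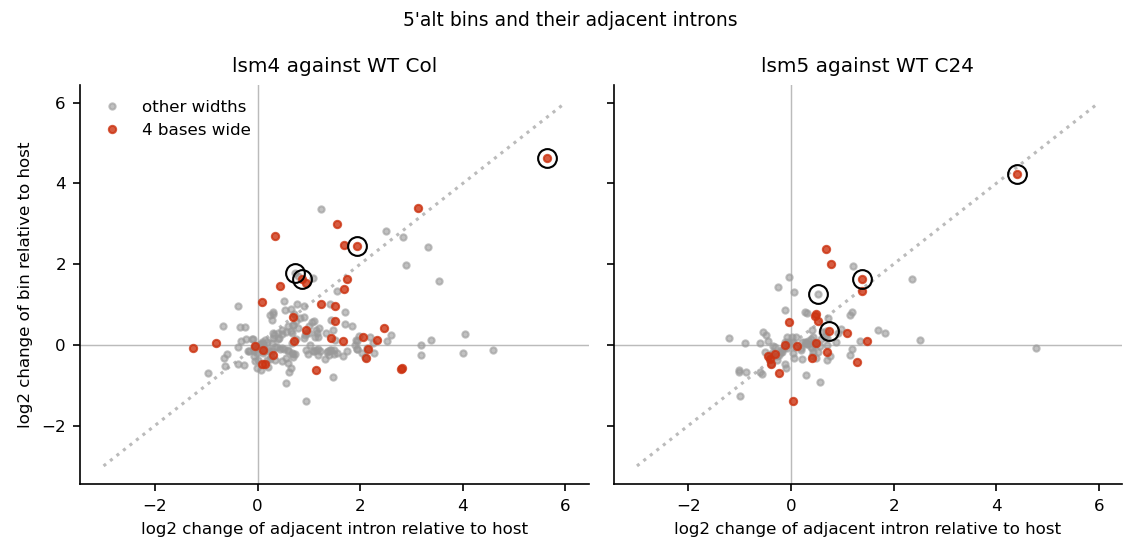
Fitted log2 change of each 5'alt bin (vertical axis) against that of the intron that follows it (horizontal axis), both relative to the host gene, for 199 bins in lsm4 and 117 in lsm5. The 4-base bins are red, the 4 called bins are ringed and equal changes lie on the dotted line; in lsm4 most points lie right of 0 on the intron axis while the bins centre near 0.

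The 4-base bins had the highest share of low p-values among the width classes in lsm4, a class chosen after its values were seen and so given without a test. Of 58 tested, 13 (22.4%) had an unadjusted p under 0.05, 12 of them higher, and the median log2 change was 0.24. Of the 482 bins of other widths 27 (5.60%) did, and the median was 0.01. In lsm5 the 4-base bins had 5 of 48 (10.4%), all higher, and a median of 0.11, against 8 of 408 (1.96%) and -0.04 for the others. Over all AS bins tested the shares with such a p were 9.27% in lsm4 and 4.67% in lsm5, and over retained introns 14% and 8.06%. The introns beside the 4-base bins also moved more: 1.43 (35 introns) against 0.69 (164 introns) in lsm4, and 0.49 (24) against 0.22 (93) in lsm5, as median log2 changes.

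Donor strength parted the bins in a like way. Where the upstream donor scored higher, 26 of 165 bins (15.8%) had an unadjusted p under 0.05 in lsm4, 25 of them higher, and where the downstream donor scored higher 14 of 374 (3.74%) did, 7 of them higher. The medians were 0.13 and -0.02. In lsm5 the counts were 9 of 139 (6.47%), all higher, and 4 of 316 (1.27%). Bins on the 5-prime untranslated side had 11 of 70 (15.7%) in lsm4 and 2 of 53 (3.77%) in lsm5, and coding bins 26 of 441 (5.9%) and 9 of 380 (2.37%). These stand beside 9.27% in lsm4 and 4.67% in lsm5 over all AS bins tested, and 14% and 8.06% over retained introns. The bins with a higher upstream score were also those with low wild-type shares, and a bin rarely read in the wild type can pass the count filter through the mutant libraries alone, in which case it had to be higher there. The same holds for the 4-base bins and for the introns tested beside them, so the direction of the counts in these classes can be set in part by the filter.

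Several bins that were not called in lsm4 had groups that did not overlap, and they are named here after their values were seen. Over all 540 bins, 54 (10%) had all lsm4 shares higher than the highest WT Col share and 24 (4.44%) had all of them under the lowest, against 10.8% and 4.76% of all AS bins tested. AT5G55530:E004, a 4-base bin on the 5-prime untranslated side of a gene for a calcium-dependent lipid-binding protein, had 0, 2 and 1 counts in WT Col and 73, 78 and 48 in lsm4, a ratio of 10.7 from summed counts (exact 95% interval 3.59 to 52.1; adjusted p = 0.051, edgeR). Its intron rose from 0, 11 and 2 counts to 290, 220 and 163 (log2 change 3.13, adjusted p = 0.0014, edgeR). In lsm5 it had 15, 3 and 1 counts against 0 in every WT C24 library, too few to be tested. AT2G47690:E002, a 4-base bin of a gene for a NADH-ubiquinone oxidoreductase-like protein, held 0%, 0.359% and 0.488% in WT Col and 2.70%, 2.00% and 2.61% in lsm4 (adjusted p = 0.084, edgeR). Its intron was not called (log2 change 0.34, adjusted p = 0.65). In WT C24 it held 1.19%, 0% and 0.399%, and in lsm5 2.84%, 2.35% and 2.75%. Neither AT5G55530:E004 nor AT2G47690:E002 had enough WT Col reads to pass the count filter without the lsm4 libraries, so both had to be higher there. The intron of AT5G55530:E004 was likewise tested only through lsm4.

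Bins with a low wild-type share in 3 more genes showed the same order. PSBP-1 encodes a protein of the oxygen-evolving complex of photosystem II, and its 4-base bin held 0.0428%, 0.0596% and 0.0607% in WT Col and 0.214%, 0.0909% and 0.209% in lsm4 (adjusted p = 0.10, edgeR). Its intron rose (log2 change 1.74, adjusted p = 0.0019, edgeR). CP29, a chloroplast RNA-binding protein gene, had a 63-base bin at 0.0643%, 0.0430% and 0.0434% in WT Col and 0.129%, 0.149% and 0.305% in lsm4 (adjusted p = 0.13). Its intron rose (log2 change 2.90, adjusted p = 0.00087). ATARI5, of the Ariadne family of RING proteins, had an 83-base bin at 0.808%, 0.999% and 1.03% in WT Col and 3.26%, 2.58% and 3.30% in lsm4 (log2 change 1.65, SE 0.34; adjusted p = 0.081, edgeR). The intron of ATARI5 was not called (log2 change 1.08, adjusted p = 0.11, edgeR). In all of these bins the wild-type share was about 1% or less.

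Among bins with lower shares in lsm4, none was called. The 33-base bin of TPT, the triose phosphate translocator of the chloroplast envelope, held 2.89%, 3.25% and 2.41% in WT Col and 1.98%, 2.02% and 1.51% in lsm4 (log2 change -0.63, SE 0.21; adjusted p = 0.30, edgeR). The 15-base bin of FAC1, an AMP deaminase gene needed in the embryo, held 6.50%, 4.64% and 4.01% in WT Col and 2.74%, 2.64% and 2.61% in lsm4 (log2 change -0.89, SE 0.32; adjusted p = 0.36, edgeR). The 12-base bin of ATPIN7, an auxin efflux carrier, held 2.89%, 3.95% and 4.40% in WT Col and 2.63%, 1.89% and 2.45% in lsm4 (adjusted p = 0.45). In lsm5 the ATPIN7 bin lay the other way, with 2.72%, 2.31% and 2.50% in WT C24 and 3.52%, 3.12% and 3.72% in lsm5 (adjusted p = 0.98, edgeR).

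A pair of bins too rarely read for the filter had reads only on the lsm4 side of the Col experiment. The 21-base bin of SNRK2.2, a protein kinase of abscisic acid signalling, had no read in WT Col, WT C24 or lsm5 and 11, 18 and 9 counts in lsm4, or 1.20%, 1.27% and 1.31% of the host count. That is at least 8.29-fold higher than in WT Col, with 3 counts for the whole group as the floor. The 223-base bin of AT3G05560, a gene for a ribosomal L22e protein, had no read in WT Col and 12, 39 and 8 counts in lsm4, at least 14.0-fold higher. In the C24 experiment that bin had 3, 0 and 13 counts in WT C24 and 18, 17 and 25 in lsm5. Both were called only when no filter on bin counts was used.

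In lsm5, none of the 456 tested 5'alt bins was called, and none of the 2932 AS bins was (0%). At an unadjusted p under 0.05 there were 13, of which 12 were higher and 1 lower, against 4.67% of all AS bins tested (3.31% higher and 1.36% lower), and DESeq2 also called 0 5'alt bins and 16 AS bins of other kinds. The median log2 change was -0.02 (quartiles -0.30 and 0.29), beside 0.01 over all AS bins and 0.13 over retained introns. Every lsm5 library lay above every WT C24 library in 23 bins (5.04%) and below in 9 (1.97%), against 5.12% and 3.27% of all AS bins.

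Among the bins with the lowest unadjusted p in lsm5, besides NOI, SAG21 and AT1G25275, some others are named after their values were seen. The 4-base bin of SAG13, a senescence-associated short-chain dehydrogenase gene, held 0.0684%, 0.0854% and 0.0426% in WT C24 and 0.327%, 0.281% and 0.195% in lsm5 (log2 change 2.00, SE 0.46; unadjusted p = 0.0023, adjusted p = 0.38, edgeR). In the Col experiment SAG13 had no read in the bin in WT Col and 9, 7 and 2 in lsm4, but the host was little read in WT Col, with 24, 169 and 174 counts, and the lower bound on the fold is only 1.37. AT4G39420:E004, the widest bin of all with 2004 bases, in a gene for a protein with a spatacsin carboxy-terminus, held 3.73%, 5.32% and 4.89% in WT C24 and 10.9%, 9.98% and 9.76% in lsm5 (log2 change 1.13, SE 0.28; adjusted p = 0.44, edgeR). Its intron had 1 read in lsm5 and none in WT C24. The 84-base bin of ATYSL3, a transporter of metal chelates, held 1.16%, 1.11% and 0.807% in WT C24 and 4.63%, 3.48% and 1.64% in lsm5 (adjusted p = 0.57, edgeR). Its intron had 5, 4 and 2 counts in WT C24 and 30, 14 and 19 in lsm5 (log2 change 2.35, adjusted p = 0.11, edgeR). The 16-base bin of AT3G13120, a ribosomal S10 family protein gene, held 0.245%, 0.270% and 0.0692% in WT C24 and 1.05%, 1.36% and 0.584% in lsm5 (adjusted p = 0.47). The bins of SAG13, AT3G13120 and ATYSL3, and the intron of ATYSL3, could not have passed the count filter on WT C24 reads alone, which favours a rise. The 18-base bin of AT3G14415, a gene for an aldolase-type TIM barrel protein, held 0.0726%, 0.0951% and 0.0831% in WT C24. In lsm5 it held 0.147%, 0.200% and 0.337% (log2 change 1.44, SE 0.37; unadjusted p = 0.0043, adjusted p = 0.47, edgeR). In all of these bins no lsm5 library overlapped WT C24.

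No 5'alt bin differed between the mutants by the interaction test over all 12 libraries. Of 579 tested, 0 were called and 24 had an unadjusted p under 0.05 (4.15%), beside 4.82% of all 3855 AS bins tested (2.02% higher in lsm5 than in lsm4 and 2.8% lower), of which 0.0259% were called. The lsm4 and lsm5 comparisons share no control libraries. Over the 416 bins tested in both, the log2 changes had a Pearson correlation of 0.297 and a Spearman correlation of -0.012. The fitted changes were both above 0 in 93 bins, both below in 90 and opposite in 233. An unadjusted p under 0.05 was met by 24 of them in lsm4 and by 11 in lsm5, and 6 bins met it in both, so 6 of 24 and 6 of 11. Neither the shared directions nor this overlap were counted over all AS bins. Whether they are particular to 5'alt bins is therefore not known. The 6 bins were those of PSBP-1, AT1G25275, AT2G47690, SAG21, AT4G31180 and NOI, each higher in both mutants. In both experiments NOI, AT2G47690 and AT4G31180 passed the count filter only through the mutant libraries. Their direction was therefore fixed beforehand. AT4G31180, a class II aminoacyl-tRNA synthetase gene, had a 5-base bin with 1, 12 and 2 counts in WT Col, 11, 16 and 20 in lsm4, 1, 7 and 2 in WT C24 and 22, 16 and 15 in lsm5.

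**Figure D4:**
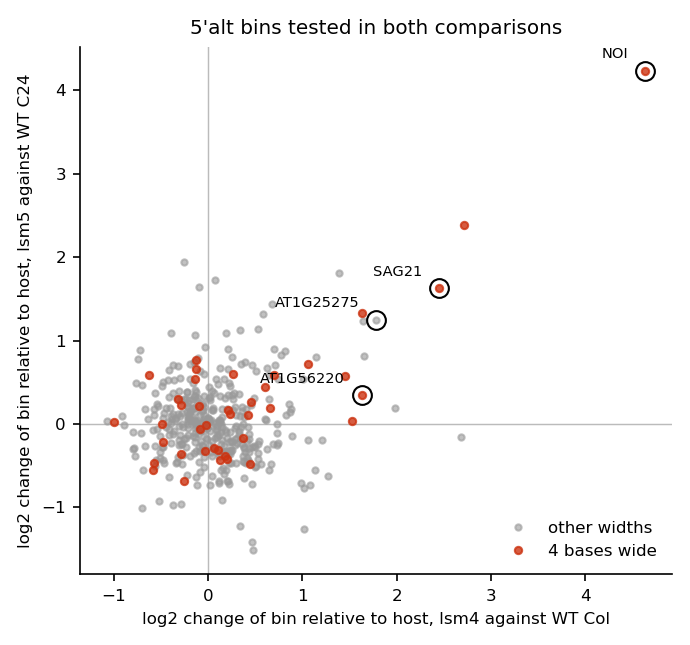
Fitted log2 change relative to the host gene in lsm4 (horizontal axis) and in lsm5 (vertical axis) for the 416 5'alt bins tested in both comparisons, with 4-base bins in red and the 4 bins called in lsm4 ringed and named. Most points form a round cloud about 0, and a few, NOI, SAG21 and AT1G25275 among them, lie far out in the upper right.

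Some bins differed more between the Col and C24 experiments than within either. Of the 416 bins, 10 (2.40%) had a lower share in all 6 libraries of the C24 experiment than in any of the 6 Col libraries and 2 (0.481%) a higher one, against 2.44% and 1.11% of the 2706 AS bins tested in both. The clearest, named after its values were seen, was the 6-base bin AT5G46250:E015 in a gene for an RNA-binding protein. It held 9.84%, 13.1% and 14.5% in WT Col, 10.7%, 11.7% and 10.6% in lsm4, 2.00%, 2.17% and 2.17% in WT C24 and 3.38%, 3.24% and 2.62% in lsm5. The 95-base bin of RCE1, a conjugating enzyme of the RUB modifier, held 27.4% to 42.2% in the Col experiment and 15.1% to 22.8% in the C24 experiment. A second bin of AT1G25275, the 4-base bin E004, held 3.32% to 4.13% in the Col experiment and 0.730% to 2.07% in the C24 experiment. Unlike bin E007 of that gene it was not higher in lsm4 (log2 change -0.13, SE 0.23). AT4G40030:E005, in a histone H3 gene with a near-identical paralog, held 0.966% to 1.69% and 0.0376% to 0.509% in the Col and C24 experiments, and the paralog makes its share uncertain.

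**Figure D5:**
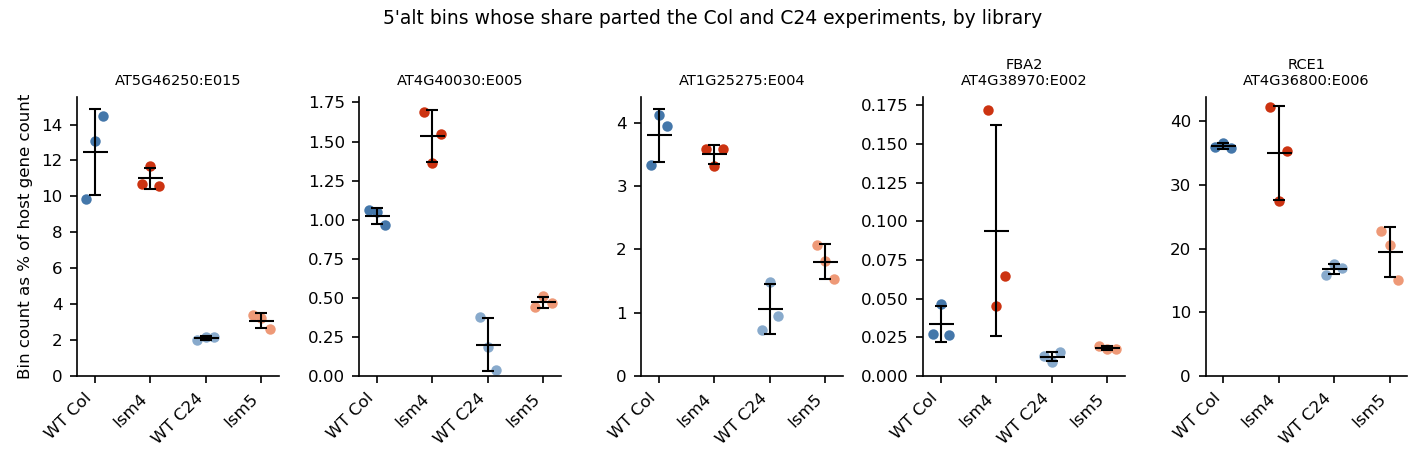
Bin count as a percentage of the host gene count (vertical axis) in each library (points) of the 4 groups, with the mean and SD of n = 3 in black, for 5 bins whose 6 Col libraries all lay above the 6 C24 libraries. AT5G46250:E015 lies at 9.84% to 14.5% in the Col experiment and at 2% to 3.38% in the C24 experiment.

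Bins in genes of 9 lists of splicing, RNA decay, clock, light, flowering and abscisic acid genes did not pass the test. The lists hold 114 genes, of which 19 carry 20 of the 5'alt bins, and 13 of these bins were tested in lsm4 and 11 in lsm5. None was called higher or lower in either comparison, and 1 had an unadjusted p under 0.05. That was the 33-base bin of RNPS1, also known as the splicing factor SR45, which held 0.298%, 0.0300% and 0.0666% in WT Col and 0.537%, 0.401% and 0.335% in lsm4 (log2 change 2.42, SE 0.75; unadjusted p = 0.0086, adjusted p = 0.27, edgeR). Its WT Col counts were only 3, 2 and 3, too few to pass the count filter without the lsm4 libraries. The intron that follows it was higher in lsm4 (log2 change 3.32, adjusted p = 0.0042, edgeR). With 2, 2 and 2 counts in WT Col, that intron too was tested only through lsm4 and had to be higher.

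None of the other list bins had an unadjusted p under 0.05. Among 4 bins of SR splicing factors tested in lsm4 the log2 changes ran from -0.15 to 2.42, and that of SRZ-21 held 26.4% ± 2.02 and 23.8% ± 3.92 (WT Col, then lsm4, as in the values that follow; SD, n = 3 each). The bin of ATU2AF65A, the large subunit of the factor that binds the polypyrimidine tract, held 18.5% ± 1.19 and 16.1% ± 2.55, and that of ATU2AF35A, the small subunit, 13.3% ± 1.05 and 13.3% ± 3.69. The bin of PTB, a polypyrimidine tract binding protein gene, held 2.67% ± 0.221 and 1.86% ± 0.476. Among flowering genes FCA held 4.92% ± 1.54 and 6.49% ± 0.692, SVP 3.97% ± 1.39 and 4.76% ± 3.71, and FLM 5.65% ± 3.03 and 4.25% ± 1.72. The clock list had 1 tested bin, in ADO2 (LKP2), at 3.08% ± 1.26 and 1.68% ± 0.416, and the bin of ATOST1, a kinase of stomatal closure, held 16.8% ± 1.89 and 11.6% ± 4.47. In the C24 experiment the bin with the lowest p was that of the SR gene RS31a, 556 bases wide, at 11.9% ± 6.07 in WT C24 and 4.92% ± 1.51 in lsm5 (log2 change -1.22, SE 0.58; adjusted p = 0.98, edgeR). No list bin of the LSM proteins or of mRNA decay was tested.

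The authors' deposited tables of their own AS calls hold 51 5'alt bins for lsm4 when their rows are matched by coordinates, and 5 for lsm5. In the authors' deposited table for lsm4 44 of the 51 are higher and 7 lower, and in that for lsm5 4 are higher and 1 lower. In the authors' deposited table for lsm4 only 14 of the 49 rows named 5'alt have coordinates of a 5'alt bin, so its event names were not used. Of the 51, 25 passed the filter used here and 24 of those had the direction given in the authors' deposited table. Both sets of changes come from the same libraries, so the shared direction is no separate evidence. Only 2 of the 51, SAG21 and NOI, were called here, and AT1G56220 and AT1G25275 are not among the 51. The FDR of the 51 in the authors' deposited table reaches 0.15. The exception was AT3G05640:E007, at 2.83 on the log2 scale in the authors' deposited table and -0.74 relative to the host here. The authors' deposited tables list NOI in both mutants, at 5.12 for lsm4 and 4.35 for lsm5 on the log2 scale.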

How the data were processed

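Messenger RNA was selected by its polyA tail and prepared by the TruSeq RNA guide, with no strand-marking step named, per the labels' protocols. The files hold 12 columns of raw counts for genes, introns and AS bins, as deposited. TopHat2 2.0.9, R 3.0.2, edgeR 3.4.2 and TAIR10 were used, per the submitters' processing notes, and the counting rule is not given in the sources used here. The authors' deposited comparison tables give log2 fold changes and, per the file headers, p-values adjusted as FDR. Growth times follow the sample protocols, since the design text gives a single time. Left out were 6 repeated sample columns, 11 columns without a header, and 1 nameless intron row holding 11 counts.

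Here, every AS bin with a host count of at least 10 in each library went into a quasi-likelihood fit with edgeR 4.0.16 in R 4.3.3, with the log host count as offset, filterByExpr (minimum count 10) and Benjamini-Hochberg adjustment over all AS bins; introns were tested alike. DESeq2 1.42.0 was an alternative. Standard errors are the log2 change divided by the root of F. Replicates differed by more than sampling noise (chi-square per degree of freedom 16 to 148.5). Sequences, donors and coding positions came from RefSeq TAIR10.1; only 167 of 1342 host spans were equal there, so positions relative to coding sequence are those of the reference.

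Bins were to be named if called with a mean count of at least 20 and no overlap between groups (up to 8 each way), if called in both mutants or in a listed gene, or if among the 3 with the highest counts. The other bins named were chosen after their values were seen. The members and lists were chosen with earlier results of these data known.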

Additional observations from a re-analysis of the deposited data

How the results depend on the processing

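In lsm4, 4 5'alt bins were called. The count was 9 with no filter on bin counts, 9 with DESeq2 and 33 with library scaling in place of the host count. Over all AS bins DESeq2 called 51 in lsm4, against 13 in the main fit, so its calls rose in general. Such totals are not given for the other alternatives in lsm4. The 33 held only 2 of the 4, SAG21 and NOI. The count was 2 when all reads of the adjacent intron were taken off, an alternative chosen after seeing the data that leaves 426 bins to test. Of those 2 bins AT1G25275:E007 was higher and AT4G40040:E005 lower, the only lower call under that alternative, in a histone gene with a near-identical copy. It ranged from 0 to 5 when single libraries were left out. Replicate numbers did not pair the samples throughout (correlations of -0.21, -0.10 and 0.21 in the Col experiment, and of -0.24, 0.43 and 0.43 in the C24 experiment). In the C24 experiment WT C24 2 and lsm5 1, which differ in number, reached 0.48. Libraries of the Col experiment that share a numeral in the column's name had correlations of 0.11 and 0.21. With the replicate number as a block 0 bins were called in lsm4 and 0 in lsm5. The numeral of the column's name as a block gave 23 calls in lsm4, 19 of them higher. WT Col and lsm4 share those numerals only in part, so that fit leaves little to measure spread from. With the replicate number as a block the log2 changes were 4.58 for NOI, 2.42 for SAG21, 1.66 for AT1G56220 and 1.77 for AT1G25275, with adjusted p of 0.10, 0.10, 0.12 and 0.15 (edgeR). The interaction was fitted without a block. The block moved the median log2 change to 0.032 in lsm4 and -0.036 in lsm5. The lsm5 and interaction counts were 0 under every alternative run. The median log2 change in lsm4 was 0.265 with no filter, where most added bins hold few reads, and otherwise within the spread between libraries. The adjusted p of the called bins reached 0.21 for NOI, 0.18 for SAG21, 0.40 for AT1G56220 and 0.26 for AT1G25275 over the alternatives, with no change of sign. Bins with under 10 counts were not resolved at this depth, and WT Col 1 was the shallowest library. The causes of these shifts were not tested.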
